A study of Homo sapiens with 15 samples.

Results

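Transcripts of 10 genes were followed across 5 culture media: 9 genes of serine/arginine-rich (SR) splicing factors, SRSF1, SRSF2, SRSF3, SRSF4, SRSF5, SRSF6, SRSF7, SRSF10 and SRSF11, and CLK1, which encodes a kinase of these factors. They were taken by symbol from a table of 58395 Ensembl genes, and 10 of 10 matched an identifier in GENCODE 29. The low-count filter left 16889 genes for testing, among them 10 of the 10.

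SR proteins bind exonic sequences of pre-mRNA through an RNA recognition motif and recruit the spliceosome through a tail rich in arginine and serine, the RS domain. Kinases of the SRPK family phosphorylate the RS domain in the cytoplasm, which allows import into the nucleus, and kinases of the CLK family add phosphate there and release the proteins from nuclear speckles. Many SR genes limit their own level by including a poison exon, which carries an early stop codon and sends the transcript to nonsense-mediated decay, and CLK1 makes transcripts with retained introns that are kept in the nucleus. Gene counts, as used here, add up all isoforms of a gene, so they do not separate productive from poison or intron-holding transcripts.

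The cells were H1299, an established line of human non-small cell lung carcinoma that the labels trace to a lymph node. They grew for a day in complete RPMI medium with serum and were then moved for 12 h into RPMI without serum. It held neither glucose nor glutamine, glucose alone (5 mM), glutamine alone (4 mM), both nutrients at those concentrations, or the same glucose together with the ammonium salt NH4Cl at 4 mM. From each medium 3 poly(A) libraries were sequenced, which makes 15, from what the labels call triplicate cells. All samples are of a single line at a single time, and each was without serum for those 12 h. The labels name no day, batch or separate culture behind a replicate. The p-values thus rest on the spread among libraries of the same medium, which edgeR pooled over the 5 media and drew toward that of other genes. They do not measure the spread of the 3 libraries of a single medium. Part or all of the pooled spread may be technical.

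Library totals ran from 14914127 to 19938691 counts, and the 10 genes had 692 to 13524 counts in a library. The spread between libraries of a medium was small, with coefficients of variation of 0.444% to 5.39% over the 10 genes and 5 media (median 1.87%). The medium with neither nutrient stood apart in composition: its 10 most abundant genes took 12.3% to 12.4% of the counts (5.54% to 7.09% in the other media). Its TMM factors, which correct totals for differences in composition, were 0.793 to 0.794 (1.006 to 1.086 elsewhere). The part of the most abundant genes in these factors was not tested. Levels are CPM, the counts of a gene divided by the TMM-scaled library total, given as mean ± SD of 3 libraries, and each log2 change is given ± the standard error (SE) from edgeR. KRT8, KRT18 and VIM, the keratin and vimentin genes of such carcinoma cells, were at 154.2 CPM or more in every library. EPCAM, CDH1 and KRT19, which mark epithelial cells, reached at most 2.05 CPM. The summed levels of 5 leukocyte, 4 endothelial and 4 fibroblast markers were at most 7.75, 1.82 and 2.99 CPM in any library. In bulk RNA fewer cells of a kind and less RNA per cell cannot be told apart.

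RPKM is CPM divided by the kilobases of exon of a gene, joined over all its isoforms in the annotation. Per length, as RPKM, SRSF1 and SRSF3 were the most abundant of the 10. Their means over the 5 media were 77.3 and 67.9 RPKM. Both encode shuttling SR proteins that also take part in export of mRNA. SRSF7 followed at 42.2 RPKM, then SRSF5 at 38.0, SRSF6 at 37.7 and SRSF2 at 36.8. CLK1 averaged 20.4 RPKM, close to SRSF11 at 19.6, and SRSF10 and SRSF4 were lowest at 13.5 and 12.97 RPKM. The order depended on the medium for CLK1 above all, which had 52.1 RPKM with neither nutrient, more than SRSF5 at 46.3, and 7.80 RPKM with both nutrients, below every other gene of the 10. The plot of levels by medium shows each library.

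**Figure D1:**
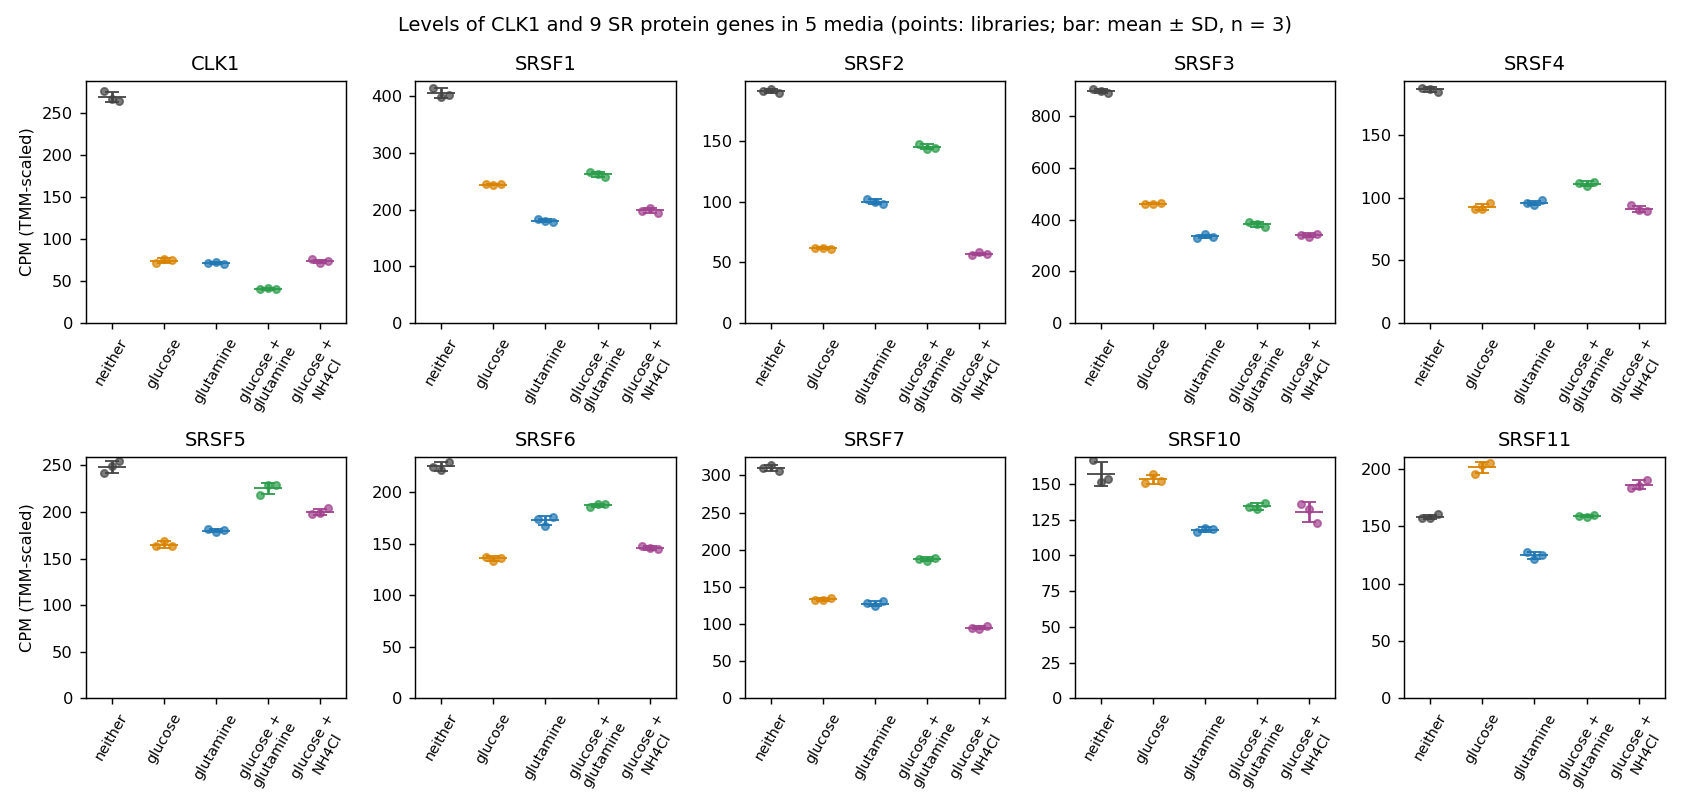
Levels of CLK1 and the 9 SR protein genes in CPM (vertical axis, linear and from 0, scaled by TMM) in each of the 5 media (horizontal axis); points are libraries, and the bar shows the mean ± SD of 3 libraries. CLK1 falls from 269.2 CPM with neither nutrient to 40.3 CPM with both, while SRSF11 is highest with glucose at 201.3 CPM.

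CLK1 (ENSG00000013441, chr2:200853009-200864744 on the minus strand, GRCh38) was highest with neither nutrient and lowest with both. The 3 libraries with neither nutrient had 276.4, 266.5 and 264.6 CPM, and those with both had 39.75, 41.24 and 40.03 CPM. In between lay glucose at 70.85, 76.3 and 74.45 CPM, glutamine at 71.64, 72.18 and 69.94 CPM, and glucose with NH4Cl at 75.42, 70.95 and 73.06 CPM. These 3 middle media overlapped with each other, and no library of theirs reached the range of the medium with neither nutrient or of that with both. Against neither nutrient the log2 change of CLK1 was -1.87 ± 0.03 with glucose (adjusted p = 7.16e-121, edgeR), -1.92 ± 0.03 with glutamine, -1.88 ± 0.03 with glucose and NH4Cl and -2.74 ± 0.03 with both (adjusted p = 2.70e-142, edgeR), the last a 6.68-fold difference in means. Of all 16889 genes tested, 0.45% fell at least as far as CLK1 with both nutrients, 0.936% with glutamine, 1.43% with glucose and 1.53% with glucose and NH4Cl. Scaled by library totals alone, CLK1 was still lower in the 4 media, at -1.43, -1.57, -2.30 and -1.43 on the log2 scale for glucose, glutamine, both, and glucose with NH4Cl.

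The SR protein genes were also mostly highest with neither nutrient, but by different amounts. The summed level of the 9 was 2781 ± 18.4 CPM with neither nutrient, 1648 ± 11.3 CPM with glucose, 1434 ± 7.27 CPM with glutamine, 1793 ± 7.71 CPM with both and 1444 ± 6.01 CPM with glucose and NH4Cl. Of the 10 genes, CLK1 included, 8 fell and 1 rose with glucose, where 37.9% of all genes were called lower and 39.9% higher. With glutamine 10 fell and 0 rose, against 35.8% lower and 37% higher of all genes. With both nutrients 9 fell and 0 rose, against 35.3% lower and 37% higher, and with glucose and NH4Cl 9 fell and 1 rose, against 37.9% lower and 39.6% higher. The median log2 change of the 10 was -0.85, -0.95, -0.51 and -1.03 in these 4 comparisons, where that of all genes was 0.05, 0.02, 0.05 and 0.04. The 4 comparisons share the libraries with neither nutrient.

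Part of these counts rests on the scaling. With library totals alone, the median of all genes against neither nutrient moved up by 0.44 with glucose, 0.34 with glutamine, 0.44 with both and 0.445 with glucose and NH4Cl on the log2 scale, and calls of all genes went from 6735 higher and 6401 lower to 10145 and 3533 with glucose. The corresponding counts were 6251 and 6048 against 9531 and 3312 with glutamine, 6245 and 5964 against 10866 and 2405 with both, and 6686 and 6404 against 10270 and 3325 with glucose and NH4Cl. Of the 10 genes, library totals gave 2 higher and 8 lower with glucose, 0 and 8 with glutamine, 4 and 5 with both, and 3 and 7 with glucose and NH4Cl. The medians of the 10 were then -0.41, -0.60, -0.07 and -0.59, where those of all genes were 0.49, 0.37, 0.49 and 0.49. CLK1, SRSF1, SRSF3, SRSF4 and SRSF7 were lower than with neither nutrient in the 4 media under both scalings.

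SRSF1 (ENSG00000136450, chr17:58003360-58007346, minus strand), which acts on splice site choice in very many exons, had 415.4, 399.4 and 402.8 CPM with neither nutrient and 183.2, 179.3 and 178.8 CPM with glutamine, its lowest medium. The other media had 244.2 ± 1.47 CPM with glucose, 262.3 ± 4.85 CPM with both and 198.5 ± 4.80 CPM with glucose and NH4Cl. All 5 media were apart from their neighbours in this order beyond the spread of the libraries, and against neither nutrient the log2 changes were -1.17 ± 0.03 with glutamine and -0.63 ± 0.02 with both. SRSF3 (ENSG00000112081, chr6:36594353-36605600, plus strand), the smallest classical SR protein, had 907.4, 899.9 and 890.7 CPM with neither nutrient, about 2.69 times its 329.3, 342.1 and 333.2 CPM with glutamine. Its level with glucose and NH4Cl, 339.4 ± 7.08 CPM, did not differ detectably from that with glutamine (log2 difference 0.02 ± 0.02, adjusted p = 0.458, edgeR), and the libraries overlapped, but library totals called it at 0.12 (adjusted p = 9.02e-08, edgeR). With glutamine, SRSF3 changed by -1.42 ± 0.02, a fall that 2.37% of all genes matched or passed. GENCODE 29 places another gene, AC015813.2, over 56.6% of the exon bases of SRSF1 on the same strand, with at most 1 count in a library, and AC015813.5 over 13.2% on the opposite strand, with 41 to 107 counts, so counts of SRSF1 are uncertain to the extent that shared reads were set aside or split.

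SRSF2 and SRSF7 had the widest ranges among the SR genes, at 3.35 and 3.26 times between the highest and the lowest medium. SRSF2 (ENSG00000161547, chr17:76734115-76737374, minus strand), a factor that stays in the nucleus and marks speckles, had 191.4, 192.8 and 189.5 CPM with neither nutrient, 62.01, 62.12 and 61.04 CPM with glucose and 56.29, 58.17 and 56.55 CPM with glucose and NH4Cl. With glutamine it had 101.9, 99.88 and 98.21 CPM and with both 147.8, 143.8 and 144.5 CPM, so the 2 media that held glutamine lay above the 2 that held glucose without it. The log2 change against neither nutrient was -1.63 ± 0.03 with glucose and -0.40 ± 0.03 with both, and the latter turned to 0.05 under library totals (adjusted p = 0.103, edgeR). SRSF7 (ENSG00000115875, chr2:38743599-38751494, minus strand), which carries a zinc knuckle beside its RNA recognition motif, had 310.1, 314 and 305.7 CPM with neither nutrient and 94.62, 92.93 and 97.35 CPM with glucose and NH4Cl. That is a log2 change of -1.71 ± 0.03 (adjusted p = 3.59e-118, edgeR), which 2.18% of all genes matched or passed. MFSD11, on the opposite strand, shares 36.7% of the exon bases of SRSF2 and had 364 to 614 counts in a library. Against neither nutrient, MFSD11 changed opposite to SRSF2 with glucose (0.25) and with glucose and NH4Cl (0.32), and in the same direction with glutamine (-0.26) and with both (-0.14). No source used here gives how strand entered the counting, so the part of shared reads in SRSF2 was not tested.

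SRSF4, SRSF5 and SRSF6, close relatives that each carry a pair of RNA recognition motifs, differed by 2.045, 1.505 and 1.66 times between their highest and lowest media. SRSF4 (ENSG00000116350, chr1:29147743-29181987, minus strand) went from 187.9, 186.7 and 184.4 CPM with neither nutrient to a narrow band of 89.44 to 112.7 CPM in the other 4 media. Within that band glutamine and glucose (adjusted p = 0.188, edgeR) and glucose with and without NH4Cl (adjusted p = 0.704, edgeR) did not differ detectably. SRSF5 (ENSG00000100650, chr14:69726900-69772005, plus strand) ranged from 248.3 ± 6.2 CPM with neither nutrient to 165 ± 3.35 CPM with glucose, and SRSF6 (ENSG00000124193, chr20:43457928-43464247, plus strand) from 225 ± 4.20 CPM to 135.7 ± 2.06 CPM in the same media. For both genes every pair of neighbouring media in the order differed. Their log2 changes with both nutrients against neither were small, -0.14 ± 0.03 for SRSF5 and -0.26 ± 0.03 for SRSF6, and turned to 0.30 and 0.18 under library totals.

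SRSF10 and SRSF11 stood out from the other SR genes. SRSF10 (ENSG00000188529, chr1:23964804-23980927, minus strand), known as a splicing repressor once it is dephosphorylated in heat shock, had the narrowest range, 1.33 times between media. Its libraries had 166.5, 151.2 and 153.5 CPM with neither nutrient and 150.6, 156.9 and 151.9 CPM with glucose, which overlapped (log2 difference -0.04 ± 0.03, adjusted p = 0.244, edgeR). Without replicate 2 of the medium with neither nutrient that difference was called lower at -0.07 (adjusted p = 0.0461, edgeR), and under library totals it was 0.40. SRSF11 (ENSG00000116754, chr1:70205682-70253052, plus strand), a more distant SR-related protein, was the single gene of the 10 that rose with glucose. It had 157.5, 157 and 160.3 CPM with neither nutrient and 195.7, 203.2 and 204.9 CPM with glucose, with no overlap, a log2 change of 0.35 ± 0.03 (adjusted p = 1.75e-24, edgeR). With both nutrients it returned to 158.4, 158.2 and 159.5 CPM (log2 change 0.00 ± 0.03, adjusted p = 0.899, edgeR), and with glutamine it fell to 124.7 ± 3.01 CPM (-0.34 ± 0.03, but -0.0001 under library totals).

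**Figure D2:**
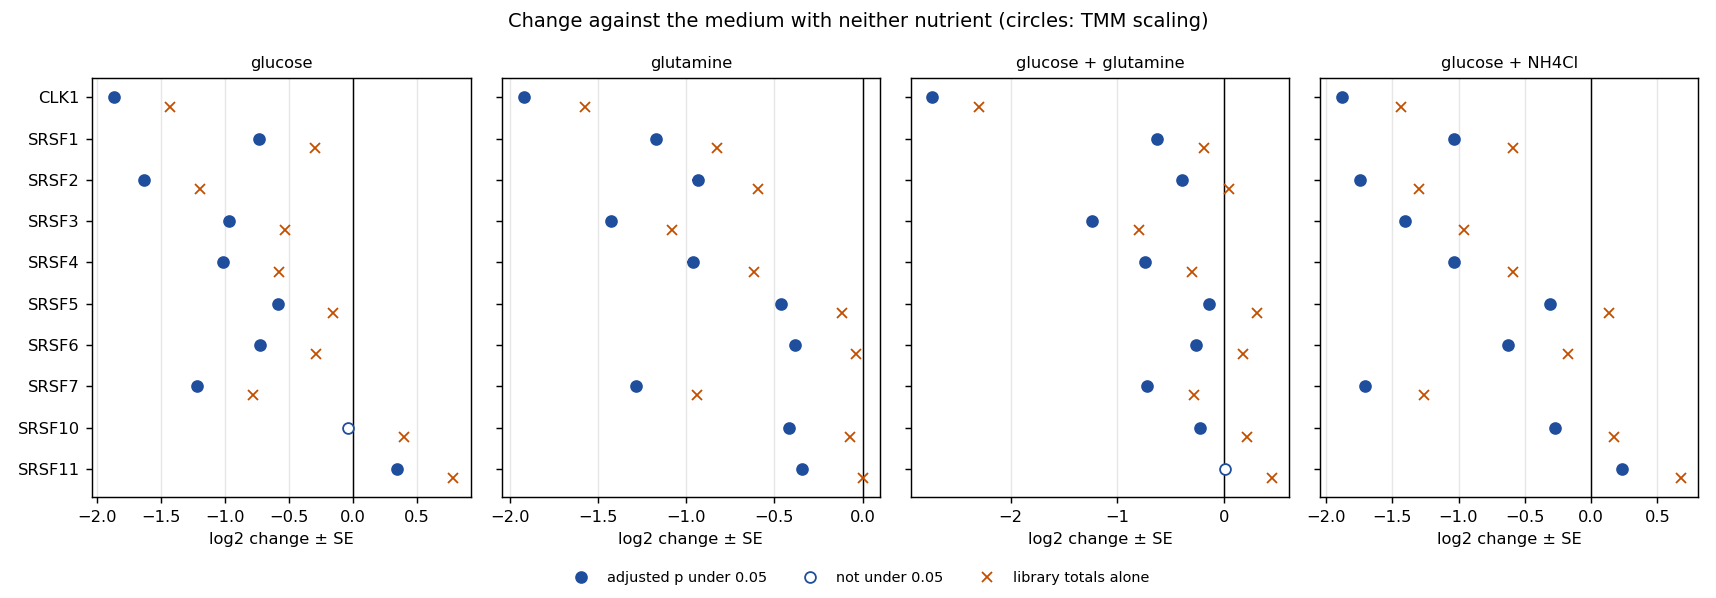
Log2 change of each of the 10 genes against the medium with neither nutrient (horizontal axis), 1 panel per medium; circles are TMM-scaled values ± SE, filled where the adjusted p is under 0.05, and crosses are values with library totals alone. CLK1 lies furthest left in each panel and stays below 0 under both scalings, while SRSF2, SRSF5, SRSF6 and SRSF10 cross 0 with both nutrients.

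Ratios between 2 genes in a library do not depend on the scaling. Per exon base, SRSF7 was 4.10 ± 0.10 times as abundant as SRSF11 with neither nutrient, 1.39 ± 0.02 times with glucose, 2.14 ± 0.05 times with glutamine, 2.47 times with both and 1.07 times with glucose and NH4Cl. CLK1 against SRSF10 went from 3.41 with neither nutrient to 0.959 with glucose, 1.201 with glutamine, 0.597 with both and 1.12 with glucose and NH4Cl. Per exon base CLK1 therefore was the more abundant of the pair in the media with neither nutrient, with glutamine and with NH4Cl, and the less abundant in the other 2. This order rests on the exon bases joined over all isoforms, 5170 for CLK1 and 10277 for SRSF10. In CPM, CLK1 was below SRSF10 with glutamine (71.25 and 118) and with glucose and NH4Cl (73.14 and 130.3). Which isoform lengths were present was not tested. SRSF2 against SRSF3 was 0.502 with neither nutrient, 0.316 with glucose and 0.396 with glucose and NH4Cl, and higher, at 0.705 and 0.901, in the 2 media that held glutamine.

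Genes of the heat shock response moved with the medium that lacked both nutrients. The 13 listed are mostly of cytosolic proteins but include HSPD1 and HSPE1, of mitochondrial chaperonins. Of these 13, 13 were lower in each of the 4 other media, under library totals as well. Median log2 changes were -3.87 with glucose, -2.45 with glutamine, -2.37 with both and -3.65 with glucose and NH4Cl. Of all genes, 37.9%, 35.8%, 35.3% and 37.9% were called lower in the same order. HSPA1B, an inducible chaperone, had 23560 CPM with neither nutrient, 62.8 CPM with glucose, 2873 CPM with glutamine, 344.9 CPM with both and 62.0 CPM with glucose and NH4Cl. DNAJB1, its co-chaperone, went from 8786 CPM with neither nutrient to 154.3 CPM with glucose. Their part in the levels of CLK1 and the SR genes was not tested.

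Because most of the 10 genes moved together against neither nutrient, the DNA before their start sites was read for short motifs. RefSeq (GRCh38.p14) gave a window for 9 of the 10 genes, and SRSF2 is named only. The stretches are shown for CLK1, SRSF3 and SRSF7, which fell far, and for SRSF11, which rose with glucose. Each is the part of the 250 bases before the most upstream RefSeq start that lies outside the gene in GENCODE 29, 5′ to 3′ on the strand of the gene, and capitals mark GGGCGG or CCAAT on either strand.
CLK1 (chr2:200864745-200864908): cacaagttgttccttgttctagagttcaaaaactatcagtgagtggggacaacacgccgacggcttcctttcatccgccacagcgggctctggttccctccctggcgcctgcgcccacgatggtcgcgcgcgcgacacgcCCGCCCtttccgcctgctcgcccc
SRSF3 (chr6:36594112-36594352): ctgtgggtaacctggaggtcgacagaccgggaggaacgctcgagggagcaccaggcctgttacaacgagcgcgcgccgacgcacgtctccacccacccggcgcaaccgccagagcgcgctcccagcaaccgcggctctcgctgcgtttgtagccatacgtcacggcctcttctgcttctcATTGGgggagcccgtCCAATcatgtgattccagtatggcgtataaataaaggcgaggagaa
SRSF7 (chr2:38751495-38751744): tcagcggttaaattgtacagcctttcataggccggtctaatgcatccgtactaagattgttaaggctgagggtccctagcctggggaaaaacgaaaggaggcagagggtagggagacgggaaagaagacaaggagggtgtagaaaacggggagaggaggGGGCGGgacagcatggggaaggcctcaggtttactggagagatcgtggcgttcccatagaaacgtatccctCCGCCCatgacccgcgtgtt
SRSF11 (chr1:70205446-70205681): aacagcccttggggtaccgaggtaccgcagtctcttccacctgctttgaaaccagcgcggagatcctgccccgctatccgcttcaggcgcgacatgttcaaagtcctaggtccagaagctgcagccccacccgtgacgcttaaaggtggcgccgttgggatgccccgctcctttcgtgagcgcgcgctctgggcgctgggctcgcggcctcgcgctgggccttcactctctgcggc

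In the whole 250 bases, CLK1 held GGGCGG, the GC box that Sp1-type factors bind, 110 and 77 bases before the start, the second outside the stretch shown. SRSF7 held it at 91 and 20 bases, SRSF6 at 49 and 37 and SRSF4 at 34, while SRSF3 held CCAAT, the box of the NF-Y factor, at 70 and 55 bases. CCGGAAG, an ETS core, was present in SRSF4 at 241 and SRSF5 at 57 bases. None of these hits shared a base. Of 35116 promoter windows of the same length, 42.6% held GGGCGG, 32% CCAAT and 8.52% CCGGAAG. The remaining motifs searched, on both strands, were found in 0 of the 9 windows. They were GAANNTTC, the core of heat shock elements (5.78% of all windows), TGACGTCA of CREB and ATF factors (1.65%), TGACTCA of AP-1 (4.2%), TGATGCAA (0.772%) and TGATGAAA (0.931%) of ATF4-type composite sites, and CACGTG, the E-box (6.34%). SRSF1, SRSF10 and SRSF11 held 0 of the motifs.

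Glutamine added to glucose split the 10 genes. It raised 6 and lowered 4, where 34.2% of all genes were called higher and 33.7% lower, and the median log2 change of the 10 was 0.18 (0.00 for all genes). SRSF2 rose most, from 61.7 ± 0.592 CPM to 145.4 ± 2.14 CPM, a log2 change of 1.24 ± 0.03 (adjusted p = 1.98e-86, edgeR) that 3.41% of all genes matched or passed. SRSF7, SRSF6 and SRSF5 rose by 0.49 ± 0.03, 0.47 ± 0.03 and 0.45 ± 0.03, SRSF4 by 0.27 ± 0.03 and SRSF1 by 0.10 ± 0.02. CLK1 fell from 73.9 ± 2.77 CPM to 40.3 ± 0.793 CPM, at -0.87 ± 0.04 (adjusted p = 8.95e-52, edgeR), so the kinase gene and SRSF2 moved in opposite directions. SRSF11 changed by -0.34 ± 0.03, SRSF3 by -0.28 ± 0.02 and SRSF10 by -0.19 ± 0.03. The 3 libraries with both nutrients lay wholly above the 3 with glucose in 6 of the 10 genes and wholly below in 4, which held for 35.3% and 34.6% of all genes. Tested against a change of 1.2-fold, 6 of the 10 were called, SRSF2, SRSF5, SRSF6, SRSF7, SRSF11 and CLK1, where 43.9% of all genes were. HSPA1B rose with glutamine as well, from 62.8 to 344.9 CPM, and 11 of the 13 heat shock genes did, against 0 that fell.

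Glucose added to glutamine gave a more uniform picture for the SR genes. All 9 rose and CLK1 fell, where 32.6% of all genes were called higher and 33% lower, and library totals gave the same 9 and 1. The rises were 0.56 ± 0.03 for SRSF7, 0.54 ± 0.03 for SRSF2, 0.54 ± 0.03 for SRSF1, 0.35 ± 0.03 for SRSF11 and 0.32 ± 0.03 for SRSF5, and lay between 0.12 and 0.22 for SRSF4, SRSF10, SRSF3 and SRSF6. CLK1 went from 71.2 ± 1.17 to 40.3 ± 0.793 CPM, at -0.82 ± 0.04 (adjusted p = 4.32e-48, edgeR). The medium with both nutrients therefore held less CLK1 than either medium with a single nutrient and more SRSF1, SRSF2, SRSF4, SRSF5, SRSF6 and SRSF7 than either. SRSF3, SRSF10 and SRSF11 in that medium lay between glucose and glutamine alone. Of all genes, library totals changed the split from 5502 higher and 5571 lower to 6764 and 4359.

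The single nutrients were compared directly. With glutamine in place of glucose 3 of the 10 genes were higher and 5 lower, where 33.5% and 33% of all genes were called. SRSF2 was higher with glutamine, 101.9, 99.88 and 98.21 CPM against 62.01, 62.12 and 61.04 CPM, at 0.70 ± 0.03, and SRSF6 and SRSF5 were higher by 0.35 ± 0.03 and 0.12 ± 0.03. With library totals the call of SRSF5 was lost (0.0326, adjusted p = 0.277, edgeR), and 2 of the 10 were higher and 6 lower. All genes shifted to lower calls there as well, from 5650 higher and 5576 lower to 4566 and 6670. SRSF11 was lower by most, 127.7, 121.7 and 124.8 CPM against 195.7, 203.2 and 204.9 CPM with glucose, at -0.69 ± 0.03 (adjusted p = 2.60e-57, edgeR). SRSF3, SRSF1 and SRSF10 changed by -0.46 ± 0.02, -0.44 ± 0.03 and -0.38 ± 0.03. CLK1 did not differ detectably (-0.05 ± 0.04, adjusted p = 0.213, edgeR), though library totals called it at -0.14. SRSF7 was lower by a margin that barely passed, -0.07 ± 0.03 (adjusted p = 0.0439, edgeR). Its call was lost without glucose replicate 1, 2 or 3 (adjusted p = 0.0507, 0.0707 and 0.147), without glutamine replicate 1 or 2 (0.0909 and 0.281) and with DESeq2 (0.0552). Without the low-count filter SRSF7 was at -0.0375 and not called either (adjusted p = 0.536, edgeR).

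Ammonium added to glucose moved the SR genes by small amounts and CLK1 not detectably. Of the 10, 2 rose and 6 fell, where 12.7% of all genes were called higher and 16.9% lower. SRSF7 went from 132, 132.8 and 134.9 CPM to 94.62, 92.93 and 97.35 CPM, at -0.49 ± 0.03 (adjusted p = 1.07e-33, edgeR), and SRSF3 from 458.8, 461.4 and 463.3 CPM to 341.8, 331.5 and 345 CPM, at -0.44 ± 0.02 (adjusted p = 2.71e-47, edgeR). Neither gene overlapped between these media, and 4.07% and 4.98% of all genes fell as far. Those 2 were also the ones called against a change of 1.2-fold, which 2.63% of all genes passed. SRSF1, SRSF10 and SRSF11 changed by -0.30 ± 0.03, -0.23 ± 0.03 and -0.11 ± 0.03. SRSF5 and SRSF6 rose by 0.28 ± 0.03 and 0.11 ± 0.03, with no overlap. CLK1 had 73.1 ± 2.24 CPM with NH4Cl and 73.9 ± 2.77 CPM without (-0.01 ± 0.04, adjusted p = 0.825, edgeR), and SRSF4 changed by -0.02 ± 0.03 (adjusted p = 0.704). SRSF2 was called at -0.11 ± 0.04 (adjusted p = 0.0140, edgeR), but not without glucose replicate 2 (0.0545), without glucose with NH4Cl replicate 1 (0.0518), with the compared media fitted alone (0.0538), without the low-count filter (0.320) or with DESeq2 (0.0560). The call of SRSF11 was lost without the low-count filter (adjusted p = 0.0960).

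Ammonium was also set against glutamine at the same concentration in medium with glucose. With NH4Cl in place of glutamine 7 of the 10 genes were lower and 2 higher, where 33.4% and 31.2% of all genes were called. SRSF2 was lower by 2.55-fold, at -1.35 ± 0.03 (adjusted p = 7.70e-91, edgeR), and SRSF7 at -0.98 ± 0.03, followed by SRSF1 at -0.40, SRSF6 at -0.36, SRSF4 at -0.29, SRSF5 at -0.17 and SRSF3 at -0.17. CLK1 and SRSF11 were higher, by 0.86 ± 0.04 and 0.23 ± 0.03, and SRSF10 did not differ detectably (-0.04 ± 0.03, adjusted p = 0.220, edgeR). SRSF3 was thus lower than with glucose alone in both media, by 0.28 on the log2 scale with glutamine and by 0.44 with NH4Cl, whereas SRSF7 rose with glutamine and fell with NH4Cl. These comparisons share the libraries with glucose. Compared with glutamine alone, glucose with NH4Cl gave 4 of the 10 higher and 3 lower (31.6% and 32.8% of all genes, 5340 and 5540 in number, against 6774 and 4262 with library totals). SRSF11 was highest among them at 0.58 ± 0.03, SRSF2 lowest at -0.81 ± 0.04, and CLK1 differed by 0.04 ± 0.04 (adjusted p = 0.388, edgeR). With library totals 6 of the 10 were higher and 3 lower, and CLK1 was called at 0.14 (adjusted p = 0.000335, edgeR).

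**Figure D3:**
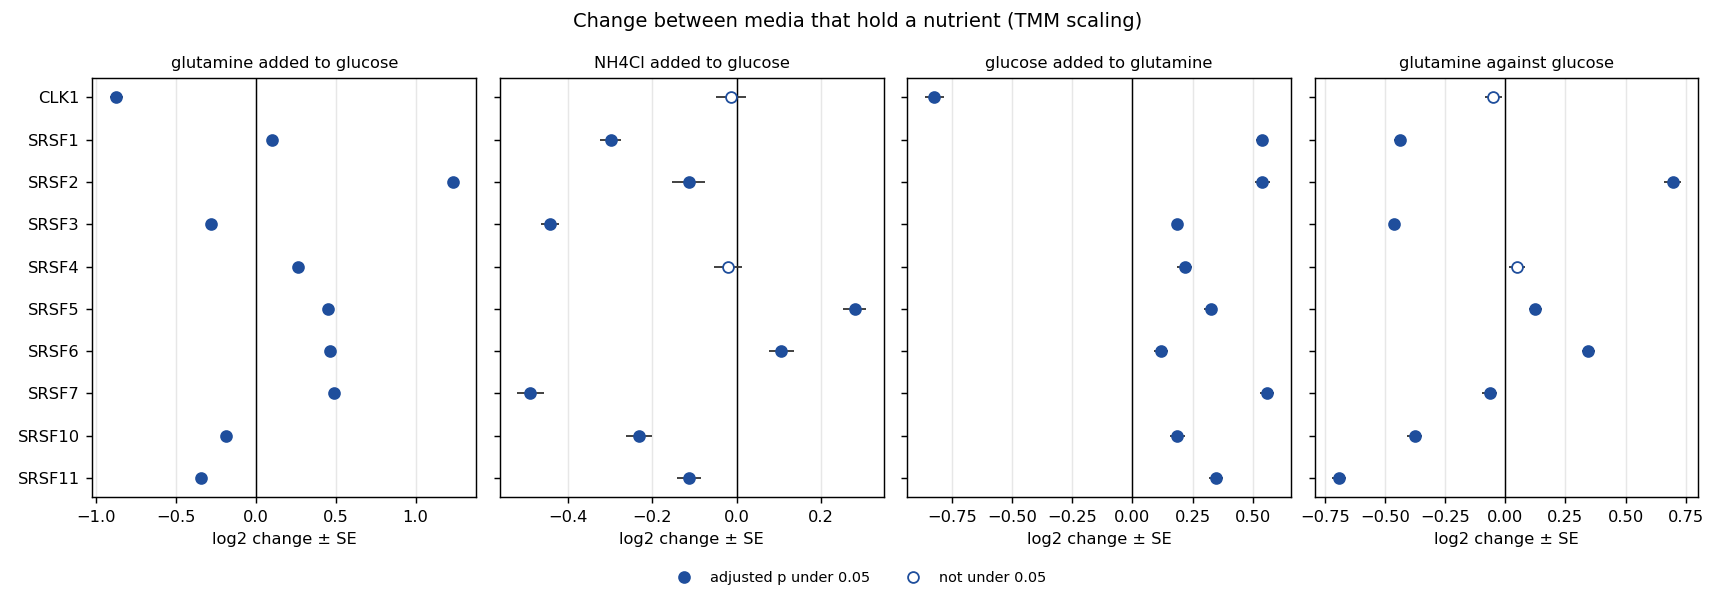
Log2 change ± SE of the 10 genes (TMM scaling, horizontal axis) for 4 comparisons between media that hold a nutrient; filled circles have an adjusted p under 0.05. SRSF2 at 1.24 and CLK1 at -0.87 are the extremes when glutamine is added to glucose, and with NH4Cl added CLK1 and SRSF4 are open circles near 0.

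The effect of a nutrient depended on the other. The interaction, the log2 change with glucose when glutamine was present minus that when it was absent, was called higher in 9 of the 10 genes and lower in 0, where 36.8% and 38% of all genes were called higher and lower, 74.8% in all. SRSF2 changed by -1.63 with glucose against neither nutrient and by 0.54 with glucose added to glutamine, an interaction of 2.17 ± 0.04 (adjusted p = 8.20e-105, edgeR). SRSF7 had -1.22 and 0.56 (1.78 ± 0.04) and SRSF1 -0.73 and 0.54 (1.27 ± 0.03). For SRSF4, SRSF3, SRSF5 and SRSF6 glucose likewise lowered the level in the absence of glutamine and raised it in its presence. CLK1 differed from them in that glucose lowered it in both settings, by 1.87 without glutamine and 0.82 with it on the log2 scale, an interaction of 1.05 ± 0.05. SRSF11 rose by 0.35 in both, with an interaction of 0.00 ± 0.04 (adjusted p = 0.958, edgeR), and SRSF10 had 0.23 ± 0.04. Under library totals 8 of the 10 were called higher and SRSF10 and SRSF11 lower, at -0.11 and -0.33, while the median of all genes moved by -0.34 and calls of all genes went from 6214 higher and 6421 lower to 4324 and 8497.

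The 10 genes were then compared by their pattern over the 15 libraries, as Pearson's r of log2 CPM. Libraries of a medium share that medium, so r describes 5 media and carries no test. SRSF2 and SRSF6 were most alike (r = 0.969), then SRSF1 and SRSF3 (0.941) and SRSF4 and SRSF7 (0.940). SRSF5 was nearest to SRSF6 (0.849) and SRSF10 to SRSF1 (0.800). SRSF11 had no close partner, with 0.578 to SRSF10 and -0.552 to SRSF6. CLK1 was nearest to SRSF3 (0.882) and had -0.031 with SRSF11. By rank, as Spearman's rho, the nearest partner was another gene for most of them. SRSF2 was then nearest to SRSF4 (0.914, against 0.846 to SRSF6) and SRSF3 to SRSF10 (0.864, against 0.829 to SRSF1). For CLK1 it was SRSF10 (0.589), with 0.529 to SRSF3. SRSF5 kept SRSF6 (0.871) and SRSF11 kept SRSF10 (0.489).

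**Figure D4:**
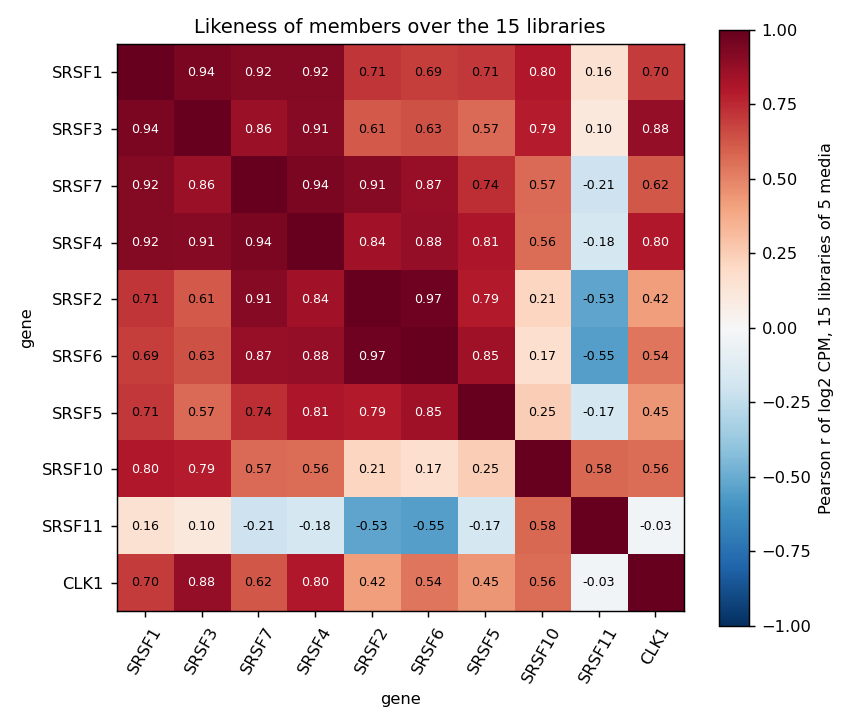
Pearson's r of log2 CPM over the 15 libraries for each pair of the 10 genes (colour scale from -1 to 1, both axes list the genes). SRSF11 is pale or blue against most others, down to -0.552 with SRSF6, and off the diagonal SRSF2 with SRSF6 is darkest at 0.969.

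Among 3719 genes with a symbol, at least 5 CPM on average and a range of at least 1 log2 unit over media, those most like CLK1 were DUSP5 (r = 0.997), CCNL1 (0.994), ZNF787 (0.990), SERTAD1 (0.989) and OSER1 (0.988), and 43 reached 0.95. DUSP5, a phosphatase of ERK kinases, had 408.9 CPM with neither nutrient, 121.6 with glucose, 107.4 with glutamine, 60.2 with both and 114.4 with glucose and NH4Cl. CCNL1, which encodes cyclin L1, a cyclin with an RS domain, had 200.4, 82.5, 81.8, 58.9 and 91.6 CPM in the same order. OSER1, a gene that responds to oxidative stress, had 266.8, 69.3, 82.7, 34.4 and 74.5 CPM. The mean of the standardised patterns of the 9 SR genes was matched best by XRCC3 (r = 0.992), CALM2 (0.990), NET1 (0.989), FAM136A (0.987) and RRM1 (0.983), and 117 genes reached 0.95. RRM1, the large subunit of ribonucleotide reductase, had 190.9 CPM with neither nutrient, 100.7 with glucose, 88.0 with glutamine, 136.5 with both and 99.5 with glucose and NH4Cl.

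The CLK family did not move as a group. CLK2 had 10.3 ± 1.80 CPM with neither nutrient and 28.1 with glucose, 33.9 with glutamine, 25.5 with both and 31.6 with glucose and NH4Cl, so it was higher in the 4 media by 1.46, 1.74, 1.32 and 1.63 on the log2 scale while CLK1 was lower in each. CLK4, the closest relative of CLK1, fell by 0.36, 0.36, 0.57 and 0.32 in the same order, but with library totals CLK4 was at 0.07, -0.02, -0.12 and 0.12 and not called in any (adjusted p from 0.141 to 0.842, edgeR). CLK3 changed by -0.62, -0.07 (adjusted p = 0.161, edgeR), -0.57 and -0.62, and with library totals by -0.19, 0.27, -0.13 and -0.17. CLK2 stayed higher in the 4 media with library totals, and CLK1 lower. With neither nutrient CLK1 had 269.2 CPM and CLK2 10.3 CPM, values not scaled by exon length, so the levels of the pair were not compared.

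**Figure D5:**
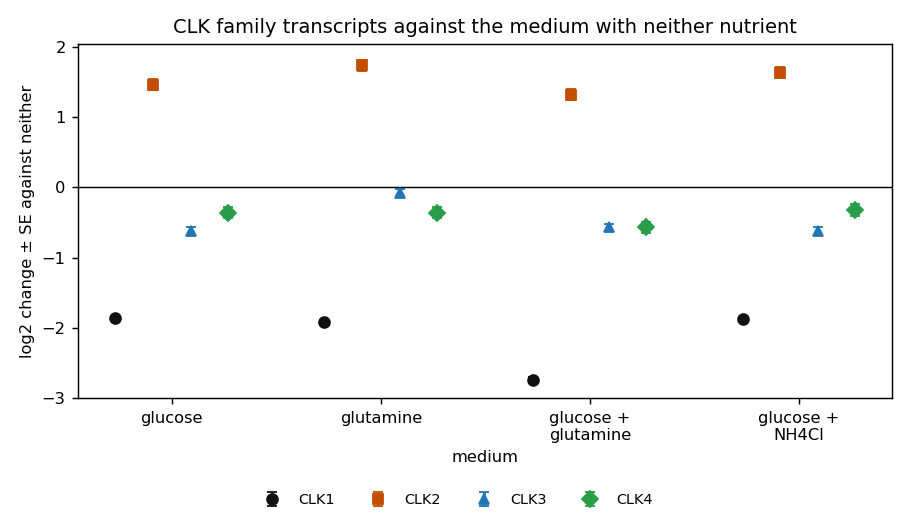
Log2 change ± SE against the medium with neither nutrient (vertical axis) of the 4 CLK genes in the 4 other media (horizontal axis). CLK2 lies above 0, between 1.32 and 1.74, and CLK1 below -1.8 in the 4 media, with CLK3 and CLK4 between them. Values are TMM-scaled; with library totals CLK4 is not called in any of the 4, and CLK3 is above 0 with glutamine.

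Of 12 listed kinases of SR proteins and their importer, CLK1 aside, 5 were higher and 5 lower with glucose against neither nutrient, where 39.9% and 37.9% of all genes were, and 5 and 5 with glutamine, where 37% and 35.8% were. Both lie near the shares of all genes. With both nutrients 3 were higher and 6 lower (37% and 35.3% of all genes), and with glucose and NH4Cl 5 and 7 (39.6% and 37.9%). Library totals gave 8 and 3, 7 and 2, 8 and 2, and 8 and 2 in the 4 comparisons, where all genes also shifted to higher calls. SRPK1, the main cytoplasmic SR kinase, had 206.7 CPM with neither nutrient, 132.5 with glucose, 148.5 with glutamine, 168.7 with both and 120.0 with glucose and NH4Cl. Against neither nutrient it was called lower in the 4 media, but with library totals higher with both (0.15). It rose by 0.35 ± 0.03 when glutamine was added to glucose and fell by 0.14 on the log2 scale when NH4Cl was, as SRSF7 did in both cases. TNPO3, the transportin that imports SR proteins, fell when glutamine was added to glucose, at -0.53 ± 0.03, and so did DYRK1A, a nuclear kinase, at -0.82 ± 0.04. PRPF4B rose by 0.20 ± 0.03.

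The other SR and SR-like genes, 26 in number, changed in both directions. With glucose against neither nutrient 11 rose and 12 fell, close to the 39.9% higher and 37.9% lower of all genes. With glutamine 4 rose and 18 fell (37% and 35.8% of all genes), with both 5 and 16 (37% and 35.3%), and with glucose and NH4Cl 8 and 14 (39.6% and 37.9%). Medians in the 4 comparisons were -0.04, -0.18, -0.36 and -0.12, but library totals gave 17 and 7, 14 and 8, 13 and 9, and 16 and 7. Of all genes called with library totals, 74.2%, 74.2%, 81.9% and 75.5% were higher there. RSRC2, a coiled-coil protein with an RS-rich stretch, fell most clearly, from 340.2 CPM with neither nutrient to 94.04 with glucose, 92.9 with glutamine, 61.5 with both and 67.8 with glucose and NH4Cl. That is -2.47 ± 0.03 with both, or -2.03 with library totals. TRA2B, a splicing activator, had 405.2, 295.0, 225.0, 180.8 and 222.2 CPM in the same order. SRSF9, a classical SR gene outside the 10, fell from 205.8 to 115.1 CPM with glucose (-0.84 ± 0.03), whereas NKTR and SREK1 rose there by 0.85 ± 0.04 and 0.60 ± 0.03. When glutamine was added to glucose 6 rose, led by RBM25 at 0.62 ± 0.03, and 15 fell, led by RBM39 at -0.93 ± 0.02 (34.2% and 33.7% of all genes). With NH4Cl added 0 rose and 15 fell (12.7% and 16.9% of all genes), with TRA2B at -0.41 ± 0.02 and RSRC2 at -0.47 ± 0.04.

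Core spliceosome genes moved in a single direction under TMM scaling. Of 38, 38 were lower in each of the 4 media than with neither nutrient. Medians were -0.90 with glucose, -0.68 with glutamine, -0.66 with both and -0.83 with glucose and NH4Cl. Of all genes, 37.9%, 35.8%, 35.3% and 37.9% were called lower in the same order, and 39.9%, 37%, 37% and 39.6% higher. Those shares also stand beside the hnRNP and nonsense-mediated decay counts below. Yet library totals gave 29, 29, 22 and 28 of the 38 lower and 6, 2, 8 and 4 higher. Of all genes called with library totals, 74.2%, 74.2%, 81.9% and 75.5% were higher. SF3A3, a subunit of the U2 particle, went from 335.1 to 124.8 CPM with glucose (-1.43 ± 0.03), and SNRPB, a Sm protein gene, from 513.4 to 202.8 CPM with glutamine (-1.34 ± 0.03). With glutamine added to glucose 26 rose and 6 fell, where 34.2% of all genes were called higher and 33.7% lower. U2AF2, which reads the polypyrimidine tract, was among those that rose, at 0.61 ± 0.02. Of 27 hnRNP and related genes, which often oppose SR proteins, 20 fell and 6 rose with glucose, 21 and 4 with glutamine, 23 and 3 with both, and 20 and 6 with glucose and NH4Cl, and with library totals 14 and 11, 17 and 10, 14 and 11, and 14 and 11. HNRNPL had -1.55 ± 0.02 with glucose, while HNRNPH3 rose by 1.05 ± 0.02. Of 14 genes of nonsense-mediated decay and the exon junction, which act on poison-exon transcripts, 4 rose and 7 fell with glucose and 3 rose and 9 fell with both, but library totals gave 11 and 2 and 8 and 6. Library totals also moved all genes to higher calls, from 6735 higher and 6401 lower to 10145 and 3533 with glucose. SMG1, the kinase of that pathway, rose by 1.42 ± 0.03 with glucose, and EIF4A3, of the exon junction complex, had -0.90 ± 0.03. SMG1 changed by -0.77 ± 0.03 when glutamine was added to glucose.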

How the data were processed

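RNA sequencing of 15 libraries, 3 per medium, was analysed from the raw counts per Ensembl gene that the authors deposited, with no normalization. The submitters' processing notes list GRCh38.p12 as the build and HISAT2 2.1.0, Subread 1.5.1 and featureCounts as tools. Settings such as strand were not given in the sources used here. Per the labels, poly(A) RNA and a stranded kit were used. Names, positions and exon lengths came from GENCODE 29 (Ensembl 94), which holds 58275 of 58395 gene IDs.

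After filterByExpr and TMM scaling, edgeR 4.0.16 (R 4.3.3) fitted 1 mean per medium over the 15 libraries (10 residual degrees of freedom), and its robust quasi-likelihood F test compared media. Calls had a Benjamini-Hochberg adjusted p under 0.05 over 16889 genes, two-sided, in 10 comparisons of media and the interaction; the SE is the log2 change over the root of F. The common biological coefficient of variation was 0.0221. A floor of 3 counts was 0.15 to 0.237 CPM, for counting error only. Libraries of a medium were compared (15 pairs, chi-square per degree of freedom 1.22 to 2.36), and 0 pairs were identical. The highest values were those of glucose replicate 2, 2.358 against replicate 1 and 2.285 against replicate 3. Glucose replicates 1 and 3 gave 1.346, and every other pair at most 1.61.

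The members and lists were chosen with earlier results of these data known. Named were the 10 members, up to 3 called genes per list, direction and comparison by smallest p with at least 5 CPM or whose value bears on a member, and the 5 genes most like CLK1 and most like the mean of the SR genes. Alternatives were a test against a 1.2-fold change, a replicate term, leaving out each library in turn, scaling by library totals alone or DESeq2 size factors, a low-count filter of 1 CPM in 3 libraries or none, fitting the compared media alone, and the Wald test of DESeq2 1.42.0. The test steps were run on simulated counts shaped like NH4Cl added to glucose, with known folds in both directions. The simulation held no shift in composition like that of the medium with neither nutrient. It therefore could not test the scaling there, nor the interaction.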

Additional observations from a re-analysis of the deposited data

Results flagged for a closer look

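The change with glucose differed between cells with and without glutamine in 9 of the 10 genes, by the interaction term of the edgeR fit over all genes, of which 74.8% were called. In log2 units, the change in the presence of glutamine minus that in its absence was 1.27 ± 0.03 for SRSF1 (adjusted p = 4.04e-84), 2.17 ± 0.04 for SRSF2 (8.20e-105), 1.15 ± 0.03 for SRSF3 (2.67e-88), 1.23 ± 0.04 for SRSF4 (5.70e-66) and 0.91 ± 0.04 for SRSF5 (2.81e-57). It was 0.85 ± 0.04 for SRSF6 (1.54e-50), 1.78 ± 0.04 for SRSF7 (2.17e-98), 0.23 ± 0.04 for SRSF10 (1.70e-06) and 1.05 ± 0.05 for CLK1 (1.43e-47). The value for SRSF10 turned to -0.11 when libraries were scaled by their totals alone, and the other 8 stayed above 0 there. The term was also called higher in 38 of 38 core spliceosome genes and 13 of 13 heat shock genes. Of 27 hnRNP and related genes, 19 were higher and 7 lower. The 26 other SR and SR-like genes gave 13 higher and 10 lower, the 12 kinases and importer 3 and 7, and the 14 of nonsense-mediated decay 6 and 5. Of all genes, 36.8% were called higher and 38% lower. Library totals gave 30 of the 38, 13 of the 13 and 14 of the 27 higher. The medium with neither nutrient, in which 13 of 13 heat shock genes were highest, enters every one of these terms, and the part of that in them was not tested. No group had more than 3 libraries, so single libraries were not screened for distance from their group.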

How the results depend on the processing

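Leaving out each library in turn kept direction and call in 700 of 720 gene values, and no count over the 10 genes or over all genes moved by more than 1.5 times. A replicate term changed no call in 110 values (CLK1 with glutamine added to glucose, -0.87 with the block). Labels number the libraries without saying that numbers share a day, and residuals of equal numbers did not correlate (30 pairs, median r -0.000312; 6 of 15 libraries were most like their own number), and no pairing was used. Library totals alone gave 2 of the 10 genes higher with glucose, 4 higher and 5 lower with both nutrients, 3 higher with glucose and NH4Cl, each against neither nutrient, and 2 lower in the interaction. They reversed SRSF10 with glucose against neither (0.40), SRSF2, SRSF5, SRSF6 and SRSF10 with both (0.0487, 0.30, 0.18 and 0.22), SRSF5 and SRSF10 with glucose and NH4Cl (0.14 and 0.18), SRSF4 with glutamine against glucose (-0.0440) and with glucose and NH4Cl against glutamine (0.0332), and SRSF10 and SRSF11 in the interaction (-0.11 and -0.33). The TMM factors that this scaling leaves out were 0.793 to 0.794 with neither nutrient and 1.006 to 1.086 elsewhere.

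Against a 1.2-fold change fewer genes can pass by construction. Of all genes 7417 were called with glutamine added to glucose, 444 with NH4Cl added, 6416 with NH4Cl in place of glutamine, 6485 with glucose added to glutamine, 6691 with glutamine against glucose and 6016 with glucose and NH4Cl against glutamine. Of the 10 genes, 6, 2, 5, 6, 6 and 3 were called in the same order. By direction, 2 of the 10 were lower with glutamine added to glucose, and 0 higher and 2 lower with NH4Cl added. With NH4Cl in place of glutamine 1 was higher and 4 lower, and with glucose added to glutamine 5 were higher. Glucose and NH4Cl gave 0 higher against neither and 1 higher against glutamine. Calls of all genes at this threshold are not given by direction, so the directional counts have no share of all genes beside them. For glucose and NH4Cl against neither no call count of all genes is given here.

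The other reversals were of values near 0 that were not called. SRSF11 with both nutrients against neither was -0.0298 with DESeq2 size factors, -0.0297 with the DESeq2 Wald test, -0.0238 without the low-count filter and -0.0068 to 0.0111 with a library left out. Its interaction was -0.0104 at 1 CPM in 3 libraries, -0.0006 with the compared media alone and -0.0132 to 0.0229 with a library left out. With NH4Cl added, CLK1 was 0.0091 without the filter, 0.0027 with the compared media alone and -0.0440 to 0.0108 with a library left out, and SRSF4 was 0.0024 without the filter and -0.0420 to 0.0025 with a library left out. SRSF10 with glucose against neither lay at -0.0734 (called) to 0.0001 with a library left out. The cause of these shifts was not tested. SRSF2 and CLK1 had the fewest counts of the 10, and whether depth bears on these calls was not tested.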
